A study of Oryza sativa with 24 samples.

Results

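Of 12453 rice genes that reached a mean value of at least 10 in at least 1 group of anther libraries, 30 responded to cold in opposite directions in different rice lines. These 30 genes, 0.241% of the 12453, were higher after cold in at least 1 line and lower after cold in at least 1 other. They were chosen from the cold responses themselves. In each line the response was the log2 of the mean of the 3 cold-treated libraries plus 1, minus the log2 of the mean of the 3 untreated libraries plus 1. A gene was taken when this response was at least 1.5 in 1 line, with every cold-treated library above every untreated one, and at most -1.5 in another line, with every cold-treated library below every untreated one. Because the choice used these responses, the responses below are a description, without a test. The files give the genes as locus identifiers without names, and the reference table used here did not pair them with names, so no role is given to any of the 30. The 2 digits after "Os" in an identifier are the chromosome of the rice genome build IRGSP-1.0, which the submitters' processing notes name.

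The series measured RNA of anthers from 4 rice (Oryza sativa) lines, named Nipponbare, Sasanishiki, PL9 and Lambayeque1 in the labels, at the booting stage. The cold-treated plants of each line stood at 12 °C for 4 days around the early microspore stage, which runs from late tetrads to pollen with 1 nucleus, and the untreated plants of the same line stayed in a greenhouse with days at 25 °C and nights at 19 °C. All plants grew 20 to a pot with the main stem alone kept. The titles number 3 libraries in each of the 8 groups, whereas the submitters' design text mentions 2 replicates. No label says whether libraries of 1 group were taken from different plants, and the spread between them may be technical. How the stages of untreated and cold-treated anthers compared at harvest is not given in the sources used here.

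An anther holds the sporogenous cells that become pollen and, around them, the tapetum, a nurse layer that feeds the young microspores and supplies much of the pollen wall. Microspores just released from tetrads are the stage at which cold is best known to cause pollen failure in rice, and the tapetum is the layer most often studied in that response. Genes of this stage switch on and off within days, so the RNA of a whole anther depends on both the treatment and the developmental stage reached.

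The deposited files hold abundance values named TPM in their headers, but their columns sum to more than a TPM column can, so they are called values here and carry no unit. No read depth can be had from them. Of the stamen identity genes, which direct stamen formation, the 3 that could be used summed to between 1684 and 2851 in cold-treated libraries and between 1618 and 3831 in untreated ones, while 4 genes of carpels and outer floret organs summed to between 3.34 and 14.6 in cold-treated libraries and between 1.78 and 19.9 in untreated ones. In RNA of whole anthers, fewer cells of a type and less RNA per cell cannot be told apart. PL9 cold-treated libraries 2 and 1 stood apart from the rest, in that their median correlations with the other libraries of their group, 0.891 and 0.905, were below all others. The number of genes and the comparison of the lines' ranges are therefore also given without these libraries.

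**Figure D1:**
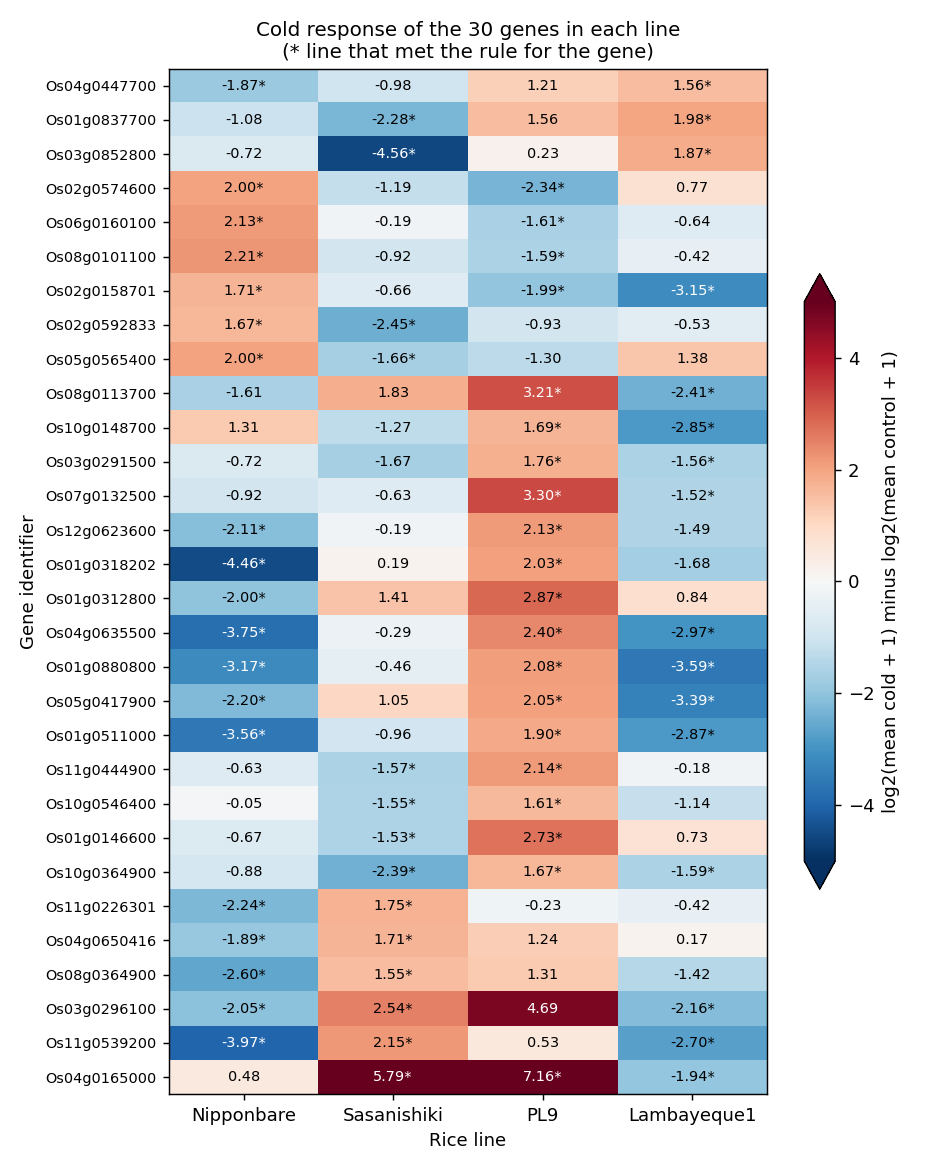
The cold response of each of the 30 genes (rows) in each of the 4 lines (columns), as log2 of the cold-treated mean plus 1 minus log2 of the untreated mean plus 1. Colour gives size and direction, and starred cells are those in which a line met the size and non-overlap limits. The column of PL9 holds 16 qualifying responses upward and 4 downward, those of Nipponbare and Lambayeque1 mostly downward ones.

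PL9 was the line in which the genes were most often higher after cold, and Nipponbare and Lambayeque1 the lines in which they were most often lower. PL9 met the upward limits for 16 of the 30 genes and the downward limits for 4. Nipponbare met them for 6 upward and 13 downward, Lambayeque1 for 3 upward and 13 downward, and Sasanishiki for 6 upward and 8 downward. Of all 12453 genes, 4.22% met the upward and 3.32% the downward limits in PL9. The shares in Nipponbare were 4.13% upward and 6.71% downward, in Lambayeque1 3.68% upward and 6.7% downward, and in Sasanishiki 4.93% upward and 5.73% downward. The choice of genes used these same responses, so nothing is read from the difference between the shares.

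The most frequent opposition was between PL9, where 10 genes were higher after cold, and Lambayeque1, where the same 10 were lower. PL9 stood against Nipponbare in the same way for 7 genes and against Sasanishiki for 4. Sasanishiki was higher where Nipponbare was lower for 5 genes, and higher where Lambayeque1 was lower for 3. In the other direction, Nipponbare was higher where PL9 was lower for 4 genes, and no gene was higher in Sasanishiki or Lambayeque1 while lower in PL9. Set by pairs of lines, 18 genes were higher in Sasanishiki or PL9 and lower in Nipponbare or Lambayeque1, 8 had the reverse, 4 opposed PL9 to Sasanishiki and 2 opposed Nipponbare to Lambayeque1, with 2 genes counted under more than 1 heading. Of the 18, 1 met the upward limits in both Sasanishiki and PL9. The downward limits were met in both Nipponbare and Lambayeque1 by 4 genes higher in PL9 and 2 higher in Sasanishiki. For 21 genes 2 lines met the limits and for 9 genes 3 lines did, while none qualified in all 4. By sign alone, the responses of Nipponbare and PL9 pointed the same way in 3 of the 30 genes and those of Nipponbare and Lambayeque1 in 18, against 65.4% and 71.6% of the 22495 genes in which 3 or more libraries reached a value of 1. Those of Sasanishiki and PL9 pointed the same way in 15, against 69.4%. Nipponbare and Sasanishiki did so in 14, against 67%, Sasanishiki and Lambayeque1 in 16, against 67.5%, and PL9 and Lambayeque1 in 11, against 68.6%. The rule took genes for opposite responses, which lowers these counts by construction, so nothing is read from them.

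Leaving aside genes in which Sasanishiki also met the limits, 11 genes were higher in PL9 and lower in Lambayeque1, Nipponbare or both. Os08g0113700 and Os04g0635500 had the strongest opposition of the 30 by the smaller of their qualifying responses, at 2.41 and 2.40, and in both it rested on single libraries. The values of Os08g0113700 were 24.2, 4.55 and 33.1 in cold-treated PL9 anthers, against 2.08, 0.512 and 1.42 in untreated PL9 anthers. In Lambayeque1 they were 3.95, 6.75 and 4.85 after cold, against 18.5, 69.3 and 7.72 untreated. The responses were 3.21 in PL9 and -2.41 in Lambayeque1. Cold-treated library 2 of PL9 lay well below libraries 1 and 3 and still above all 3 untreated libraries, and the untreated Lambayeque1 libraries were led by library 2. Without that library the Lambayeque1 response was -1.19, short of the limit, and the gene left the set. Sasanishiki leaned upward with a response of 1.83 and Nipponbare downward with -1.61, but in both the cold-treated and untreated libraries overlapped.

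Os05g0417900 met the rule whichever library was left out, with 10.7, 7.72 and 21.4 in cold-treated PL9 anthers, against 0.943, 3.20 and 3.19 in untreated PL9 anthers. In Lambayeque1 the gene stood at 2.47, 2.67 and 2.06 after cold, against 33.4, 44.8 and 25.8 untreated. In Nipponbare it stood at 7.79, 8.17 and 2.51 after cold, against 40.7, 23.3 and 31.3 untreated. No library of 1 treatment reached the other within these 3 lines. The responses were 2.05 in PL9, -3.39 in Lambayeque1 and -2.20 in Nipponbare.

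Os04g0635500 combined a wide opposition with a wide spread. Its values were 42.00, 14.5 and 136 in cold-treated PL9 anthers, against 12.1, 11.2 and 10.6 in untreated PL9 anthers. In Nipponbare they were 27.4, 13.4 and 21.3 after cold, against 82.5, 43.5 and 748 untreated. In Lambayeque1 they were 26.6, 17.3 and 19.05 after cold, against 123, 339 and 52.8 untreated. The groups did not overlap in any of these lines, yet untreated library 3 of Nipponbare stood far above the others of its group, as did library 2 of untreated Lambayeque1 and library 3 of cold-treated PL9. The response in PL9 minus that in Nipponbare was 6.16 with all libraries and 3.96 without untreated library 3 of Nipponbare. The PL9 response was 2.40 with all libraries and 1.25 without cold-treated library 3, and the gene then left the set.

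Os01g0511000 showed the same 3 qualifying lines. Its spread was narrower than that of Os04g0635500 in untreated Nipponbare, cold-treated PL9 and both Lambayeque1 groups. In cold-treated Nipponbare and untreated PL9 its spread was wider. The PL9 response of Os01g0511000 was 1.90 with all libraries and 1.35 without cold-treated library 3, and the gene then left the set. It had 22.8, 38.5 and 74.1 in cold-treated PL9 anthers, against 11.7, 18.03 and 4.42 in untreated PL9 anthers. It had 15.1, 16.9 and 36.1 in cold-treated Nipponbare anthers, against 282, 184 and 368 in untreated Nipponbare anthers. The Nipponbare groups lay far apart, whereas in PL9 the lowest cold-treated library stood just above the highest untreated one. Its Lambayeque1 values averaged 18.1 ± 0.271 in cold-treated Lambayeque1 and 138 ± 49.98 in untreated Lambayeque1 (SD, n = 3 each). Os01g0880800, the fourth gene of this kind, was low in most libraries, with 1.13, 4.43 and 4.79 in cold-treated PL9 anthers, against 0.156, 0 and 0 in untreated PL9 anthers. Its untreated mean in Lambayeque1 rested on library 2, at 0.174, 0.327 and 0.334 in cold-treated and 4.03, 38.4 and 0.865 in untreated Lambayeque1 anthers. Without that library the PL9 response minus the Lambayeque1 response was 3.51, against 5.67 with it.

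Of the 3 genes that opposed PL9 to Nipponbare alone, Os12g0623600 led by the smaller of its qualifying responses. Its values were 52.1, 45.5 and 93.5 in cold-treated PL9 anthers, against 9.88, 22.01 and 9.56 in untreated PL9 anthers. In Nipponbare they were 53.2, 46.8 and 64.5 after cold, against 173, 122 and 425 untreated. After cold the 2 lines overlapped, while untreated they were separated in every library. The responses were 2.13 in PL9 and -2.11 in Nipponbare, with -1.49 in Lambayeque1, just short of the limit.

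Os01g0312800 and Os01g0318202 share this class and lie near each other on chromosome 1, with 23 identifiers between them in the order of identifiers. Os01g0312800 had 2.04, 13.7 and 12.3 in cold-treated PL9 anthers, against 0, 0.883 and 0.373 in untreated PL9 anthers. In Nipponbare it had 3.72, 10.4 and 10.1 after cold, against 44.1, 37.4 and 24.2 untreated. Os01g0318202 averaged 13.8 ± 9.97 in cold-treated PL9 and 2.61 ± 0.543 in untreated PL9 (SD, n = 3 each). In Nipponbare it had 4.25, 4.82 and 3.57 after cold, against 24.99, 8.82 and 307 untreated. The first gene kept its place whichever library was left out, while the second depended on untreated library 3 of Nipponbare for its size: PL9 minus Nipponbare was 6.49 with that library and 3.81 without it.

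The other 3 genes that opposed PL9 to Lambayeque1 alone were Os10g0148700, Os03g0291500 and Os07g0132500. Os10g0148700 had 8.67, 8.54 and 4.05 in cold-treated Lambayeque1 anthers, against 46.8, 45.1 and 80.2 in untreated Lambayeque1 anthers, the widest Lambayeque1 response of the 3 at -2.85. Its PL9 values were 3.86, 9.77 and 2.79 after cold and 0.407, 1.25 and 1.35 untreated. Os03g0291500 had the highest group mean of the 30 as deposited, 306 ± 78.8 in untreated Lambayeque1, with 103 ± 19.7 in cold-treated Lambayeque1 (SD, n = 3 each). Its PL9 values were 80.6, 401 and 114 after cold and 59.5, 63.7 and 50.4 untreated, so that library 2 led the cold-treated group. Os07g0132500 stood at 2.01 or less in every library outside cold-treated PL9, where its values were 0.404, 21.3 and 14.2, against 0.274, 0.398 and 0.274 in untreated PL9. In Lambayeque1 it was listed at 0 in all 3 cold-treated libraries, against 1.59, 1.98 and 2.01 in the untreated ones. Its downward side thus spans low values alone.

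**Figure D2:**
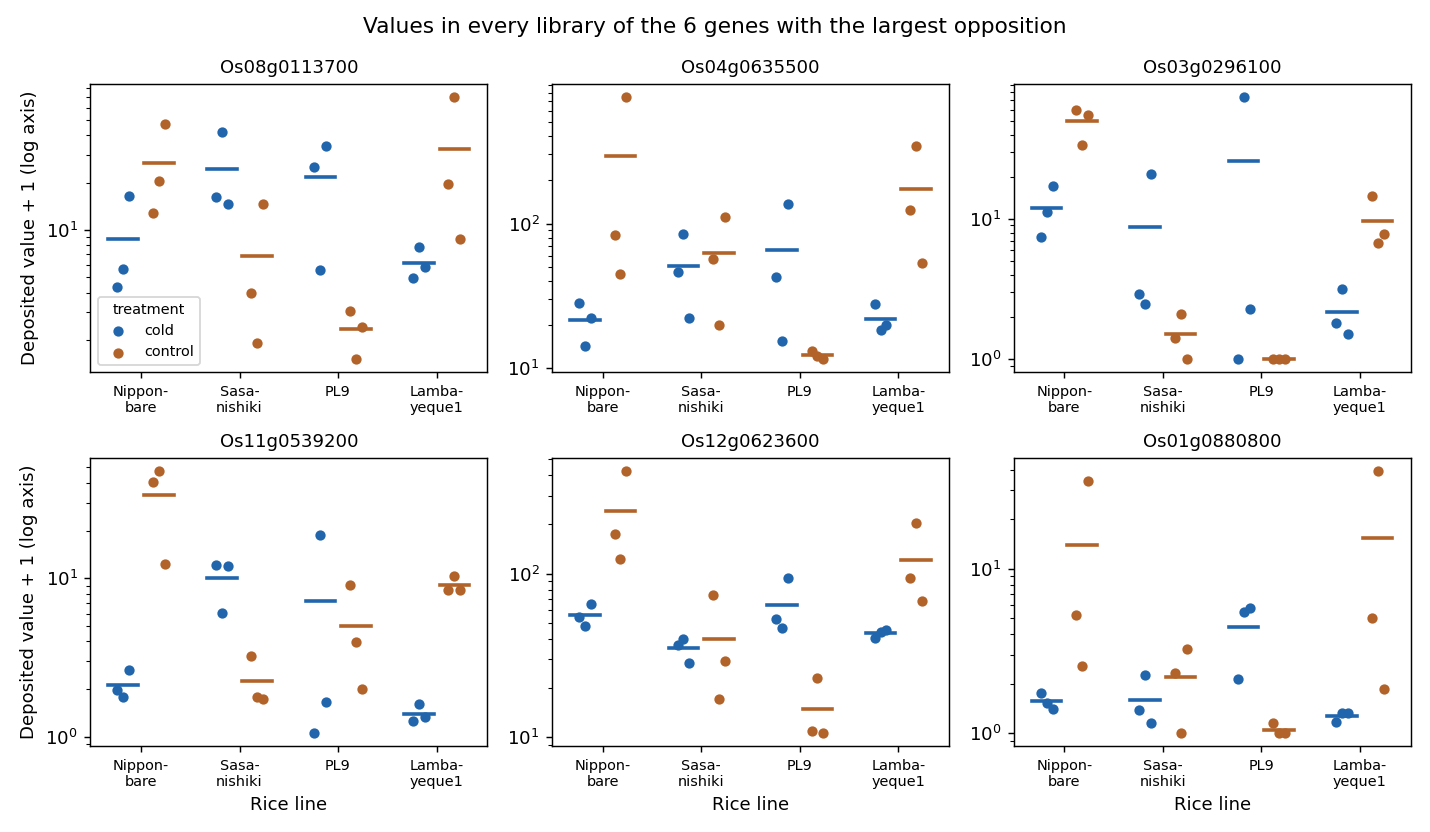
Deposited value plus 1 in every library, on a log axis, for the 6 genes with the largest opposition, by line. Blue points are cold-treated and brown points untreated (control) libraries, and the bar is the mean value plus 1 of the 3 libraries. Single libraries stand out, such as untreated library 3 of Nipponbare in Os04g0635500 at 748 and cold-treated library 2 of PL9 in Os03g0296100 at 73.4.

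PL9 was opposed to Sasanishiki in 4 genes, 1 of them with Lambayeque1 on the lower side too. Os11g0444900 had 14.9, 44.1 and 25.2 in cold-treated PL9 anthers, against 3.58, 6.88 and 6.36 in untreated PL9 anthers. In Sasanishiki it had 3.84, 3.75 and 4.17 after cold, against 26.6, 9.14 and 4.97 untreated. The cold-treated Sasanishiki libraries lay close together just under the lowest untreated one. Os10g0364900 had 5.14, 5.45 and 7.71 in cold-treated Sasanishiki anthers, against 87.3, 9.46 and 11.97 in untreated Sasanishiki anthers, and the untreated mean rested on library 1. It averaged 15.7 ± 3.82 in cold-treated Lambayeque1 and 49.3 ± 35.6 in untreated Lambayeque1 and 9.16 ± 4.40 in cold-treated PL9 and 2.19 ± 0.975 in untreated PL9 (SD, n = 3 each). The PL9 response minus the Sasanishiki response was 4.06, and 2.39 without untreated library 1 of Sasanishiki.

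The same library carried Os10g0546400, whose values were 4.29, 5.32 and 4.45 in cold-treated Sasanishiki anthers, against 35.3, 5.92 and 5.54 in untreated Sasanishiki anthers. Its PL9 values were 2.71, 4.80 and 13.2 after cold and 1.38, 2.14 and 1.25 untreated. The PL9 response minus the Sasanishiki response was 3.15, and 1.85 without untreated library 1 of Sasanishiki. Os01g0146600, the fourth, had 2.41, 25.2 and 14.6 in cold-treated PL9 anthers, against 0, 1.76 and 2.05 in untreated PL9 anthers. In Sasanishiki it had 0.191, 0 and 0 after cold, against 3.98, 0.879 and 1.33 untreated. Its Sasanishiki groups were separated at low values, and it left the set when any of 4 libraries was left out.

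Sasanishiki met the upward limits in 6 genes, of which 5 were lower after cold in Nipponbare. Os11g0539200 had 11.1, 5.06 and 11.01 in cold-treated Sasanishiki anthers, against 2.25, 0.798 and 0.745 in untreated Sasanishiki anthers. In Nipponbare it had 0.973, 0.785 and 1.63 after cold, against 39.6, 46.5 and 11.2 untreated. In Lambayeque1 it had 0.266, 0.608 and 0.338 after cold, against 7.49, 9.38 and 7.49 untreated. All 3 lines showed groups well apart, with responses of 2.15, -3.97 and -2.70 in that order, and the gene met the rule whichever library was left out.

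Os11g0226301 differed between the lines more than between the treatments. It had 5.74, 6.02 and 6.07 in cold-treated Sasanishiki anthers, against 0, 1.55 and 1.63 in untreated Sasanishiki anthers. In Nipponbare it had 11.3, 26.9 and 20.9 after cold, against 92.1, 145 and 53.4 untreated. In Lambayeque1 it stayed high under both treatments, at 116, 107 and 109 after cold and 149, 172 and 127 untreated, and in PL9 low, at 1.25, 5.44 and 2.70 after cold and 4.82, 3.96 and 2.72 untreated. Os08g0364900 averaged 7.55 ± 2.81 in cold-treated Sasanishiki and 1.92 ± 1.38 in untreated Sasanishiki, and 9.22 ± 3.65 in cold-treated Nipponbare and 60.9 ± 26.98 in untreated Nipponbare (SD, n = 3 each). Os04g0650416 averaged 5.97 ± 1.77 in cold-treated Sasanishiki and 1.13 ± 0.808 in untreated Sasanishiki, and 1.999 ± 0.844 in cold-treated Nipponbare and 10.1 ± 5.31 in untreated Nipponbare (SD, n = 3 each). Both leaned upward in PL9 as well, with responses of 1.31 and 1.24, below the limit of 1.5.

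Os03g0296100 and Os04g0165000 were low or listed at 0 in untreated Sasanishiki and PL9 and high in single cold-treated libraries of both lines. Os04g0165000 had 16.96, 12.5 and 138 in cold-treated Sasanishiki anthers, against 0, 0.0744 and 0 in untreated Sasanishiki anthers. In PL9 it had 0.768, 614 and 2.32 after cold, against 0.228, 0.662 and 0.446 untreated. In Lambayeque1 it had 5.42, 24.9 and 3.38 after cold, against 61.8, 46.4 and 30.03 untreated. Each of these lines met the non-overlap limit, but cold-treated library 2 of PL9 and library 3 of Sasanishiki held most of the signal of their groups. The PL9 response minus the Lambayeque1 response was 9.10, the widest of the 30, and 2.76 without cold-treated library 2 of PL9.

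Os03g0296100 had 1.93, 1.49 and 19.9 in cold-treated Sasanishiki anthers, against 0.424, 1.11 and 0 in untreated Sasanishiki anthers. In Nipponbare it had 6.42, 10.2 and 16.3 after cold, against 58.9, 32.6 and 54.2 untreated. In PL9 it was listed at 0 in all untreated libraries and at 0, 73.4 and 1.30 after cold, so that PL9 did not meet the non-overlap limit. The Nipponbare groups were clearly apart, and in Lambayeque1 the gene stood at 0.805, 2.17 and 0.502 after cold, against 13.5, 5.72 and 6.77 untreated. The Sasanishiki response minus the Lambayeque1 response was 4.70, and 3.0 without cold-treated library 3 of Sasanishiki.

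Nipponbare was the line on the upward side for 6 genes. Os02g0574600 had 9.61, 4.71 and 13.1 in cold-treated Nipponbare anthers, against 1.56, 1.01 and 2.03 in untreated Nipponbare anthers. In PL9 it had 2.89, 1.57 and 2.16 after cold, against 24.8, 17.6 and 3.37 untreated. The Nipponbare groups were well apart, and the lowest untreated PL9 library came close to the cold-treated ones. Os08g0101100 averaged 6.45 ± 4.55 in cold-treated Nipponbare and 0.615 ± 0.216 in untreated Nipponbare, and 5.23 ± 2.98 in cold-treated PL9 and 17.8 ± 5.64 in untreated PL9 (SD, n = 3 each). Os06g0160100 had 2.37, 3.54 and 5.53 in cold-treated Nipponbare anthers and was listed at 0, 0.287 and 0 in the untreated ones, with 4.65 ± 1.66 in cold-treated PL9 and 16.3 ± 4.65 in untreated PL9 (SD, n = 3 each). It was listed at 0 in all 3 cold-treated Sasanishiki libraries.

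Os02g0158701 was listed at 0 in all 3 untreated Nipponbare libraries, with 3.90, 1.31 and 1.58 after cold. It had 2.90, 3.58 and 0 in cold-treated Lambayeque1 anthers, against 10.4, 51.8 and 18.7 in untreated Lambayeque1 anthers. In PL9 it had 5.14, 0 and 1.38 after cold, against 18.2, 8.23 and 8.43 untreated. After cold its group means in all 4 lines lay within 0.11 of each other on the log2(value + 1) scale, the narrowest range of the 30, against 4.81 untreated.

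Nipponbare was opposed to Sasanishiki in 2 genes. Os02g0592833 had 6.07, 3.85 and 7.14 in cold-treated Nipponbare anthers, against 1.02, 0.993 and 1.30 in untreated Nipponbare anthers. In Sasanishiki it had 2.47, 2.62 and 1.77 after cold, against 19.3, 16.2 and 15.2 untreated. The libraries of each of these groups lay close together and the groups far apart, and the gene kept meeting the rule whichever library was left out. Os05g0565400 averaged 14.5 ± 3.93 in cold-treated Nipponbare and 2.88 ± 1.42 in untreated Nipponbare, and 5.89 ± 1.23 in cold-treated Sasanishiki and 20.8 ± 10.4 in untreated Sasanishiki (SD, n = 3 each), with responses of 1.38 in Lambayeque1 and -1.30 in PL9.

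Lambayeque1 was on the upward side of 3 genes. Os03g0852800 had 6.23, 10.5 and 8.98 in cold-treated Lambayeque1 anthers, against 1.73, 1.68 and 1.41 in untreated Lambayeque1 anthers. In Sasanishiki it had 3.41, 0.829 and 0.933 after cold, against 94.7, 83.3 and 12.1 untreated. Untreated libraries 1 and 2 of Sasanishiki stood far above every other library of the series, and library 3 did not. Os01g0837700 averaged 18.5 ± 9.26 in cold-treated Lambayeque1 and 3.94 ± 1.66 in untreated Lambayeque1, and 5.84 ± 3.87 in cold-treated Sasanishiki and 32.3 ± 30.6 in untreated Sasanishiki (SD, n = 3 each). Os04g0447700 had 17.1, 11.1 and 16.3 in cold-treated Lambayeque1 anthers, against 5.86, 4.32 and 2.99 in untreated Lambayeque1 anthers. In Nipponbare it had 7.87, 3.40 and 2.01 after cold, against 30.4, 16.2 and 9.99 untreated. The last of these lost its place when any of 4 libraries was left out.

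The limits cut through a continuum. Just inside were Os10g0546400, Os01g0146600 and Os07g0132500, whose smaller qualifying responses had sizes of 1.55, 1.53 and 1.52. Just outside were Os06g0586000, Os09g0272401 and Os04g0403600 at 1.499, 1.43 and 1.43. Os06g0586000 averaged 14.0 ± 4.43 in cold-treated PL9 and 4.32 ± 2.58 in untreated PL9, with 18.2 ± 9.86 in cold-treated Nipponbare and 155 ± 102 in untreated Nipponbare (SD, n = 3 each). Os09g0272401 averaged 13.9 ± 2.54 in cold-treated and 3.13 ± 2.10 in untreated Sasanishiki, with 7.36 ± 0.841 in cold-treated and 21.6 ± 6.13 in untreated Lambayeque1. Os04g0403600 averaged 164 ± 67.6 in cold-treated and 59.98 ± 16.7 in untreated Nipponbare, with 79.9 ± 45.3 in cold-treated and 252 ± 102 in untreated PL9. With no limit on size, 577 of the 12453 genes had non-overlapping groups in opposite directions in different lines. Of the 30 genes, 8 met the rule whichever of the 24 libraries was left out, and each of the others met it in at least 20 of these 24 repeats, with a median of 23. Leaving out a library of a line that did not qualify left the qualifying responses unchanged. For the 21 genes with 2 qualifying lines many of the 24 repeats were of this kind, so these counts do not measure stability.

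The rule treats cold-treated and untreated libraries alike, so it does not determine whether the lines lie farther apart before or after cold. In 27 of the 30 genes the 4 group means spanned a narrower range after cold than untreated, on the log2(value + 1) scale. The same held for 60.1% of the 22495 genes, for 60.4% of the 12453 that reached a mean of 10, and for 65.7% of the genes whose wider range was at least 2. The median range of the 30 genes was 1.77 over the cold-treated lines and 3.88 over the untreated lines. Over all 22495 genes the medians were 0.71 over the cold-treated lines and 0.86 over the untreated lines. This comparison rests on the libraries that chose the genes, so the values are given as a description without a test.

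**Figure D3:**
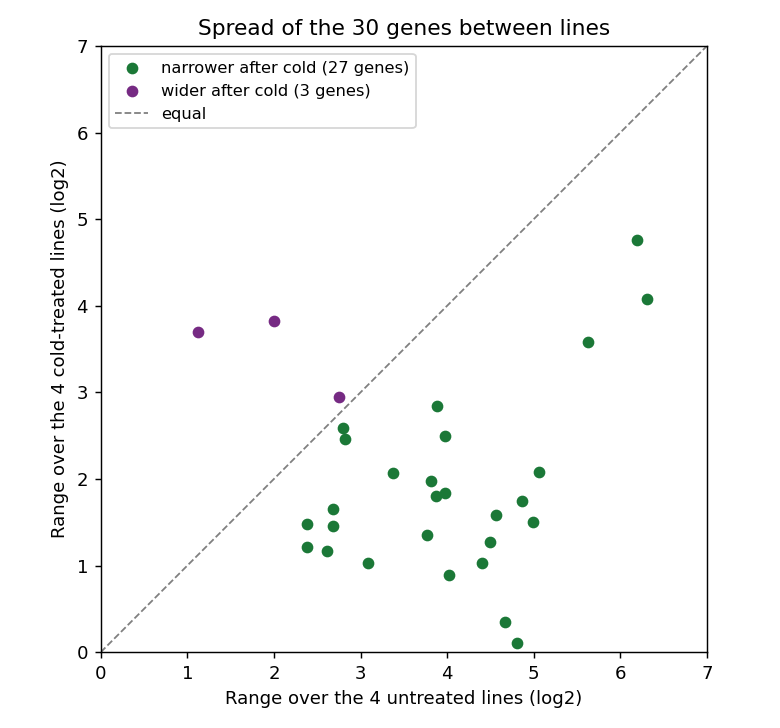
Range of the 4 group means between lines (log2 of the mean plus 1) after cold, on the vertical axis, against the same range in untreated anthers, on the horizontal axis, for each of the 30 genes. Points under the dashed line of equality, 27 of 30, had a narrower range after cold, and 3 points lie above it.

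The exceptions were Os07g0132500, Os01g0146600 and Os01g0837700. Os07g0132500 spanned 3.70 after cold and 1.12 untreated, and Os01g0146600 3.82 after cold and 2.01 untreated. Both were among the genes just inside the limits and were highest in cold-treated PL9. Os01g0837700 spanned 2.95 after cold and 2.75 untreated. Without cold-treated libraries 1 and 2 of PL9, when the rule gave 45 genes, the range was narrower after cold in 82.2% of them, and without PL9 altogether, when it gave 12, in 91.7%.

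Most genes crossed in the same way. Untreated, the line with the strongest upward response lay below the line with the strongest downward response in all 30 genes. The difference, upward line minus downward line on the log2(value + 1) scale, had a median of -3.68 and a range of -5.57 to -0.43. After cold the upward line lay above the downward line in 26 of 30, and the difference over the 30 genes had a median of 1.36 and a range of -1.58 to 4.08. The highest of the 8 group means was an untreated group in 26 of the 30 genes, against 54% of the 22495 genes. It was untreated Nipponbare for 11 genes, against 14.8% of all genes, untreated Lambayeque1 for 8, against 9.4%, untreated Sasanishiki for 4, against 18.5%, untreated PL9 for 3, against 11.3%, and cold-treated PL9 for the remaining 4, against 6.11%. The lowest group mean was that of untreated PL9 in 14 genes, against 15.3% of all genes with ties counted. The responses that chose the genes rest on these means, so nothing is read from the crossing or the shares.

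A per-gene linear model fitted with limma on log2(value + 1) over all 22495 genes, with Benjamini-Hochberg adjustment at 0.05, gave the following calls, which again used the values that chose the genes. The untreated lines differed in 28 of the 30 genes, against 51.4% of all genes, and the cold-treated lines in 10 of 30, against 33.7%. Os07g0132500 and Os01g0837700 were the 2 in which the untreated lines did not pass. The response differed between lines in 21 of 30, against 7.37%. Not passing this F test were Os04g0165000, with the widest difference of the 30 (adjusted p = 0.0764), Os01g0318202 (0.0652), Os01g0880800 (0.0638) and Os04g0635500 (0.0607). The rest that did not pass were Os03g0296100, Os10g0364900, Os10g0546400, Os01g0837700 and Os03g0291500. Of the 30, 13 were called both higher in 1 line and lower in another, against 0.774%. In single lines, 8 genes were called higher and 4 lower in PL9, where 9.05% and 8.27% of all genes were. Nipponbare had 5 higher and 11 lower, where 12% and 14.4% were. Lambayeque1 had 2 higher and 8 lower, where 11.3% and 11.5% were, and Sasanishiki 6 higher and 3 lower, where 12.6% and 12.5% were. The number called in both directions was 20 without cold-treated library 1 of PL9.

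The direction was also read in libraries that had no part in the choice, although libraries of 1 group may be technical repeats. The rule was applied again to 2 libraries per group, leaving out all libraries with the same number, and the direction was then read in the libraries left out. With libraries 1 left out, 48 genes were chosen, and in 31 of them the left-out libraries had cold above untreated in the upward line and below it in the downward line. Among all 22495 genes, read in the same lines, 16.6% did so. With libraries 2 left out the count was 39 of 75, against 19%, and with libraries 3 left out 27 of 60, against 17.3%. Together these were 97 of 183 choices, or 53.0%, against 17.8%. Both directions were reversed in 0, 5 and 4 genes for libraries 1, 2 and 3.

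The sizes in the left-out libraries were smaller than the 1.5 that the choice required, except for the downward side with libraries 1. The median response in the upward line was 0.89, 0.99 and 1.48 with libraries 1, 2 and 3 left out, and that in the downward line -2.11, -0.70 and -0.58. Of the genes chosen, 20, 23 and 20 were among the 30. For these the full rule already fixed the left-out direction in the lines that qualified, so the reading adds nothing about the 30. The 3 repeats share genes and libraries, so the total of 183 does not count independent choices. Without PL9 both directions were kept in 45.3% of 106 choices, against 18.7% of all genes read in the same lines.

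**Figure D4:**
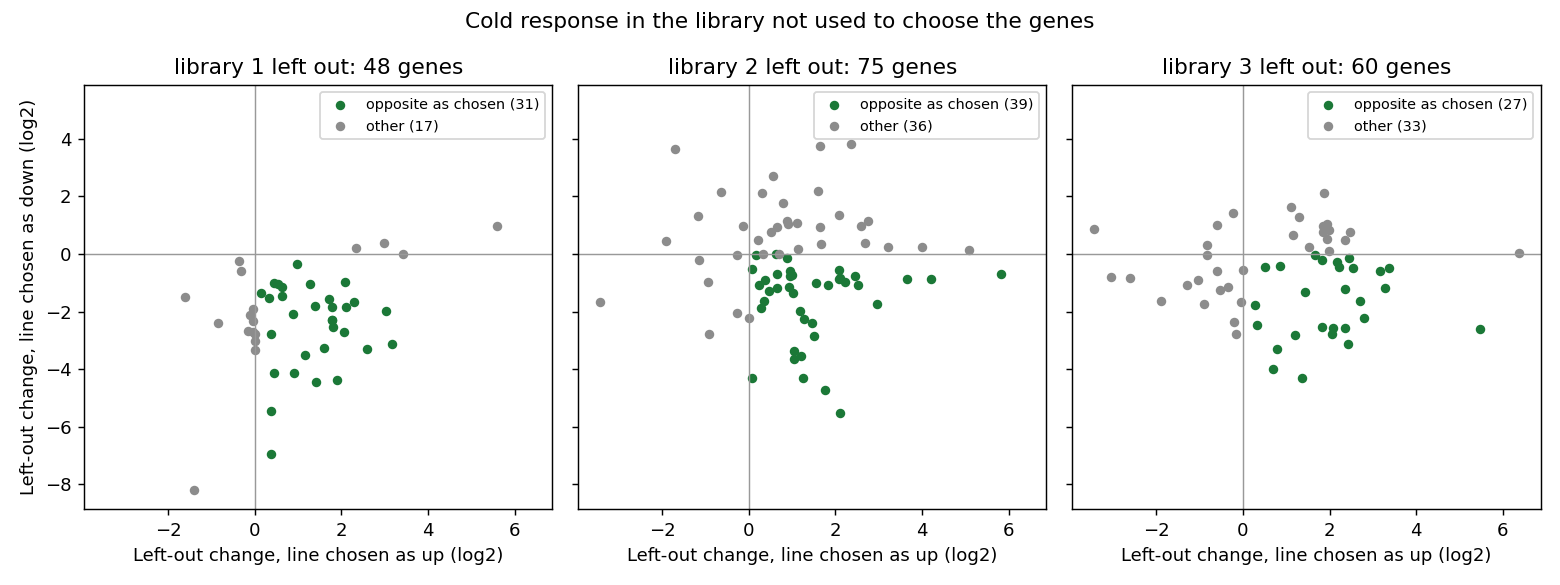
Cold response in the left-out library (cold-treated minus untreated, log2 of the value plus 1) of the upward line, on the horizontal axis, and of the downward line, on the vertical axis, for each gene chosen from the other libraries, with 1 panel per library number. Points in the lower right quadrant, 31 of 48, 39 of 75 and 27 of 60, kept both directions.

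The genes did not all have the same libraries as the highest of their groups. In 5 of them, Os08g0113700, Os12g0623600, Os01g0318202, Os04g0635500 and Os01g0880800, the same 3 libraries were the highest of their groups: cold-treated library 3 of PL9, untreated library 3 of Nipponbare and untreated library 2 of Lambayeque1. All 3 were highest together in 2.12% of the 22495 genes. All 5 genes were higher in PL9 and lower in Nipponbare or Lambayeque1, and each of these libraries adds to the size of the response in its own line. In 7 of the 30 genes, cold-treated library 2 of PL9 and library 3 of Sasanishiki were both highest, against 19.7% of all genes. Being highest did not by itself make a gene depend on these libraries. Of these genes, Os03g0291500 and Os10g0364900 left the set without that PL9 library, and Os03g0296100 without that Sasanishiki library. Os01g0312800 met the rule whichever library was left out, and in Os11g0226301 PL9 did not meet the limits. These library sets were picked after the values were seen, and their part in the opposite responses was not tested.

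Over single libraries, untreated library 1 of Sasanishiki mattered to the most genes: 7 of the 30 left the set without it. Cold-treated libraries 3 and 2 of PL9 came next, with 6 and 5. Without cold-treated library 1 of PL9 all 30 stayed, and the rule took 49 genes. A group of 2 libraries meets the non-overlap limit more easily than a group of 3, so the count can rise by construction. Without both cold-treated libraries 1 and 2 of PL9, 28 of the 30 were among the 45 genes taken. Without PL9 the 3 other lines gave 12 genes. All of them had to be among the 30, since leaving out a line can only remove genes.

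Of the 69 responses that met the limits, 17, in 13 genes, were weakened by over 1.5 times when 1 library of that line was left out. None changed direction, but the non-overlap limit fixed that in advance. The weakened responses of Os08g0113700 in Lambayeque1 and of Os04g0635500 in PL9 are given above. Without untreated library 1 of Sasanishiki, the Sasanishiki response was -0.72 in Os10g0364900, -0.24 in Os10g0546400, -0.71 in Os11g0444900 and -0.99 in Os01g0146600. Without untreated library 2 of Sasanishiki it was -1.19 in Os01g0837700, and without cold-treated library 3 of Sasanishiki 0.84 in Os03g0296100. The PL9 response was 0.82 in Os04g0165000, 0.74 in Os03g0291500 and 1.11 in Os10g0148700 without cold-treated library 2 of PL9, and 0.88 in Os10g0546400 without cold-treated library 3. Without untreated library 3 of Nipponbare, the Nipponbare response was -1.78 in Os01g0318202, -1.56 in Os04g0635500 and -1.32 in Os01g0880800. Without untreated library 2 of Lambayeque1, the Lambayeque1 response was -1.43 in Os01g0880800 and -0.85 in Os10g0364900.

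The 30 genes were of ordinary abundance. Their highest group means had a median of 34.96 and ran between 10.1 and 306, and 20 of 30, or 66.7%, lay under 50, against 67.9% of the 12453 genes. At least 1 library was listed at 0 in 9 of them, and 4 had a whole group listed at 0. Identifiers that do not end in 00, which mark loci added to the annotation later, numbered 5 of 30, against 17.5% of all genes. The genes lay on 11 of the 12 chromosomes, with 6 on chromosome 1, 4 on chromosome 4 and none on chromosome 9. Apart from the chromosome 1 pair, the closest were Os03g0291500 and Os03g0296100, with 36 identifiers between them.

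Of the marker lists, the tapetum and pollen wall products alone had most of their genes called by limma in every line. None of the 19 markers used was among the 30. The 6 products of the tapetum and pollen wall, such as the lipid transfer protein OsC4, the sporopollenin hydroxylase CYP703A3 and the aspartic protease OsAP25, summed to medians of 86632 in cold-treated and 7817 in untreated Nipponbare, of 39772 in cold-treated and 8559 in untreated Sasanishiki, of 49639 in cold-treated and 10307 in untreated PL9, and of 50681 in cold-treated and 6763 in untreated Lambayeque1. By limma 4 of the 6 were higher after cold in Nipponbare, 6 in Sasanishiki, 5 in PL9 and 4 in Lambayeque1, and none was lower in any line. The shares of all genes called in each line are those given above, and none of the 6 was listed at 0 in any library (lowest value 0.162).

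Single markers of this list differed between the untreated lines. CYP703A3 averaged 318 ± 127 in untreated Nipponbare, 32.4 ± 14.3 in untreated Lambayeque1, 0.573 ± 0.372 in untreated Sasanishiki and 0.506 ± 0.109 in untreated PL9 (SD, n = 3 each). OsAP25 averaged 125 ± 105 in untreated Nipponbare, 5.69 ± 4.51 in untreated Lambayeque1, 2.34 ± 1.58 in untreated Sasanishiki and 0.618 ± 0.197 in untreated PL9. OsC4 averaged 1025 ± 190 in untreated Nipponbare, 100.2 ± 87.1 in untreated Lambayeque1, 8.83 ± 2.57 in untreated Sasanishiki and 28.0 ± 17.7 in untreated PL9. With OsAP37, these made 4 of the 6 products whose untreated means in Nipponbare and Lambayeque1 both lay above those in Sasanishiki and PL9, while both OsC6 means lay below and RAFTIN1 was mixed. Between the untreated lines 4 of the 6 products differed by limma's F test with Benjamini-Hochberg adjustment, namely OsC4 (adjusted p = 1.3e-05), CYP703A3 (0.000489), OsAP25 (0.00469) and RAFTIN1 (0.00716). Of all 22495 genes 51.4% passed the same test. All 3 stamen identity genes also had both untreated means in Nipponbare and Lambayeque1 above those in Sasanishiki and PL9, and none of the 3 tapetum regulators, the 3 meiosis genes or the 4 carpel and outer floret genes did. After cold, CYP703A3 averaged 1217 ± 878 in Nipponbare, 164 ± 159 in Lambayeque1, 417 ± 53.9 in Sasanishiki and 544 ± 754 in PL9. Whether the stage or the cell makeup of the untreated anthers had a part in the opposite responses was not tested.

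**Figure D5:**
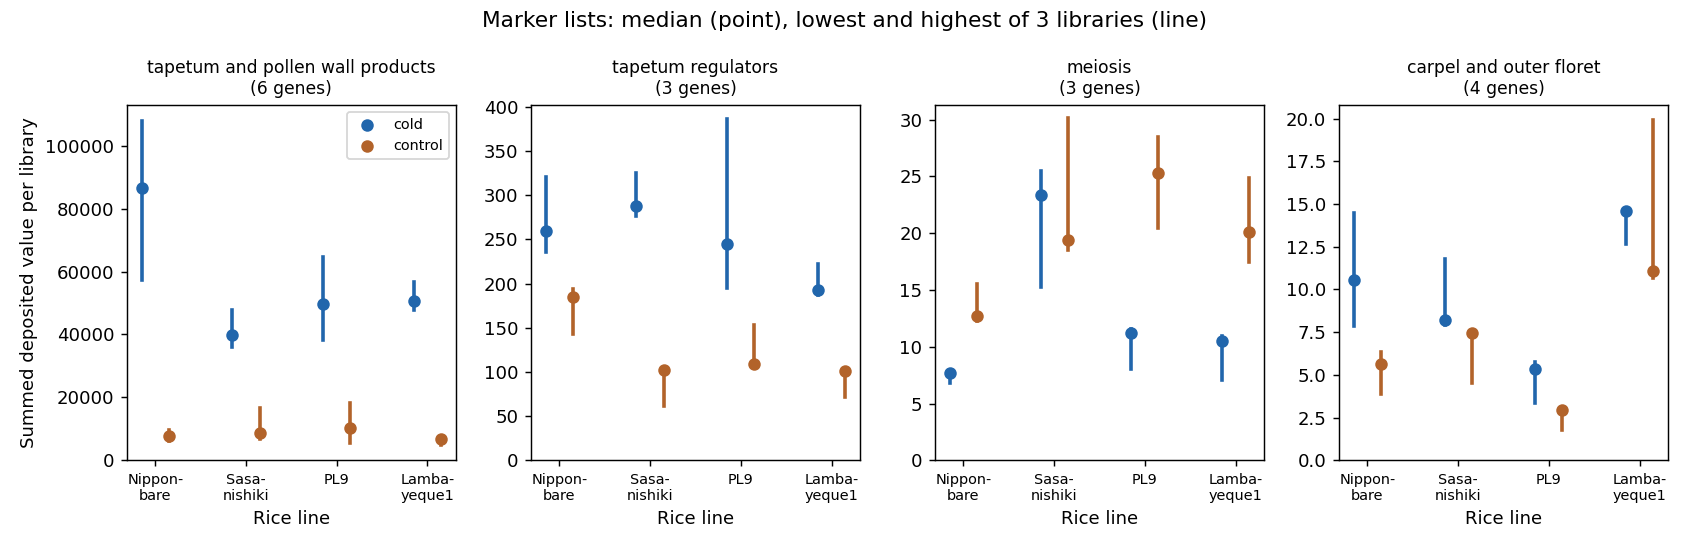
Summed value per library of 4 marker lists by line, as the median (point) and the lowest and highest (line) of the 3 cold-treated (blue, left) and the 3 untreated (brown, right) libraries, on linear axes that differ between panels. The sums of the tapetum and pollen wall products stand higher in every cold-treated library than in every untreated library of the same line, while those of the carpel and outer floret list stay between 1.78 and 19.9.

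The 3 tapetum regulators, which direct the development of that layer, summed to medians of 259 in cold-treated and 185 in untreated Nipponbare, of 287 in cold-treated and 103 in untreated Sasanishiki, of 244 in cold-treated and 109 in untreated PL9, and of 193 in cold-treated and 101 in untreated Lambayeque1. By limma 1 of 3 was higher in Nipponbare, 2 in Sasanishiki, 1 in PL9 and 2 in Lambayeque1. Of 3 meiosis genes, none was higher in any line, while 1 was lower in Nipponbare, Sasanishiki and Lambayeque1 each and 2 were lower in PL9. Their sums lay between 6.78 and 25.5 in cold-treated libraries and between 12.3 and 30.1 in untreated ones. Of the 3 stamen identity genes none was higher and 1 was lower, in Lambayeque1, and of the 4 carpel and outer floret genes 1 was higher in Nipponbare and 1 lower in Lambayeque1. The markers of maturing pollen were not used here.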

How the data were processed

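RNA of 24 anther libraries was analysed from the deposited files, 1 per library. Per the file headers their values are TPM, and kallisto 0.46.2, sleuth 0.30.0 and genome build IRGSP-1.0 are named per the submitters' processing notes. The columns sum to more than a TPM column can, so the deposited values were treated as an abundance signal of unstated scale, without counts or known depth. Of 37910 identifiers, 5399 fill several rows that repeat values across columns and were left out, which left 32511 on 1 row.

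The 30 genes and all marker lists were chosen with earlier results of these data known. Groups came from the sample titles. The 22495 genes in which 3 or more libraries reached a value of 1 were tested with limma 3.58.1 (R 4.3.3) on log2(value + 1), with 8 group means, a variance trend and Benjamini-Hochberg adjustment at 0.05. This fit was tested on simulated data. The rule for named genes took the leading gene of each combination of lines and the 3 genes just inside and the 3 just outside the limits. The other genes were named, and some given with library values, after their values were seen. Of 27 markers, 19 were used: names were matched to a RefSeq table (assembly ASM3414082v1) by name, chromosome and gene order, 4 had no match and 4 fill several rows. Scaling, pseudocount, filters, limits, read-back identifiers, a replicate block and leaving out each library were tried as alternatives. Leaving out PL9, or cold-treated libraries 1 and 2 of PL9, was added after seeing the data.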

Additional observations from a re-analysis of the deposited data

Results flagged for a closer look

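In each of the 30 genes every cold-treated library of 1 line lay above, and every cold-treated library of another line below, the untreated libraries of its own line. The rule required this of every gene it took, so it is no result about the genes. The differences below, the response in the first line minus that in the second on the log2(value + 1) scale, chose the genes and were not tested.

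For PL9 minus Lambayeque1 the difference was 9.10 in Os04g0165000, 5.67 in Os01g0880800, 5.62 in Os08g0113700, 5.45 in Os05g0417900, 4.82 in Os07g0132500, 4.54 in Os10g0148700 and 3.32 in Os03g0291500. For PL9 minus Nipponbare it was 6.49 in Os01g0318202, 6.16 in Os04g0635500, 5.46 in Os01g0511000, 4.87 in Os01g0312800 and 4.24 in Os12g0623600. For PL9 minus Sasanishiki it was 4.26 in Os01g0146600, 4.06 in Os10g0364900, 3.70 in Os11g0444900 and 3.15 in Os10g0546400.

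For Sasanishiki minus Nipponbare the difference was 6.12 in Os11g0539200, 4.15 in Os08g0364900, 4.0 in Os11g0226301 and 3.60 in Os04g0650416. It was 4.70 for Sasanishiki minus Lambayeque1 in Os03g0296100. For Nipponbare minus PL9 it was 4.34 in Os02g0574600, 3.80 in Os08g0101100 and 3.75 in Os06g0160100. It was 4.85 for Nipponbare minus Lambayeque1 in Os02g0158701. For Nipponbare minus Sasanishiki it was 4.11 in Os02g0592833 and 3.66 in Os05g0565400. For Lambayeque1 minus Sasanishiki it was 6.44 in Os03g0852800 and 4.26 in Os01g0837700, and for Lambayeque1 minus Nipponbare 3.43 in Os04g0447700.

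Outside the 30 genes, 2 of the 19 markers used differed in cold response between lines by limma's F test with Benjamini-Hochberg adjustment over all genes. They were the meiosis gene PAIR3 (Os10g0405500, adjusted p = 0.0483) and the carpel gene DL (Os03g0215200, adjusted p = 0.0416), both just under the limit of 0.05. Of all 22495 genes 7.37% passed the same test, so nothing is read from the number of markers. PAIR3 averaged 0.501 ± 0.169 in cold-treated and 4.32 ± 3.29 in untreated PL9, and 0.428 ± 0.109 in cold-treated and 0.223 ± 0.0231 in untreated Nipponbare (SD, n = 3 each). DL averaged 0.432 ± 0.375 in cold-treated and 2.15 ± 0.543 in untreated Lambayeque1 (SD, n = 3 each), and under 1 in every other group. Both are low values.

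Identifiers that fill several rows of the files were not used in the report. With their repeated values read back into 1 value per library, 4 more identifiers met the rule. For Os09g0493500 the group means were 165 in cold-treated and 4.94 in untreated PL9, and 8.90 in cold-treated and 39.2 in untreated Lambayeque1. Os06g0142200 averaged 10.9 in cold-treated and 1.41 in untreated PL9, and 1.08 in cold-treated and 28.4 in untreated Nipponbare. The others were Os01g0822900, higher in PL9 and lower in Lambayeque1, and Os04g0688100, higher in PL9 and lower in Nipponbare and Lambayeque1.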

How the results depend on the processing

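The number of genes that met the rule was 30 and depended on its limits. It was 46 with a pseudocount of 0.1 and 6 with one of 5, 68 with a smallest response of 1 and 9 with one of 2, 10 where the highest group mean had to reach 50, 91 where libraries could overlap, and 12 without PL9. With 1 library left out it ran between 26 and 49, the highest without cold-treated library 1 of PL9. Scaling by quantiles gave 29 genes, 25 of them among the 30, and scaling by median ratios 30, of which 29 were. The share with a narrower range after cold ran between 77.6% and 96.3% with 1 library left out. The number of genes limma called higher in 1 line and lower in another was 13, and between 10 and 20 with 1 library left out. Over all genes tested, limma called a cold response in 3897 genes in PL9, 5638 in Sasanishiki and a difference in response between lines in 1659. With 1 library left out these ran between 1811 and 4788 in PL9, between 3438 and 6033 in Sasanishiki and between 1063 and 2452 for the difference. With the replicate number as a block they were 2579 in PL9 and 616 for the difference. The numbers share no source in the labels, and deviations of same-numbered cold-treated and untreated libraries correlated at -0.389 to 0.116, so the block is no pairing; it could not be fitted between lines of 1 treatment. For 19 identifiers, 16 of them among the 30 genes, 354 differences between lines were recomputed under the alternatives. Of these, 342 moved by less than the spread between libraries and 12 moved more. Those 12 moved with a pseudocount of 0.1 or 5 or, in Os04g0165000, without cold-treated library 2 of PL9, alone or with library 1. Single libraries widen the spread, so the 342 do not measure stability. In Os04g0635500 a fall from 6.16 to 3.96 without untreated library 3 of Nipponbare stayed within a spread of 2.7. None of the 354 changed direction, which the non-overlap of libraries fixed in advance wherever 1 library was left out. The files give no depth.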
